A study of Mus musculus with 36 samples.

Results

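Whole intestines of E18.5 mouse embryos that carried catalytically inactive caspase-8 and lacked both MLKL and caspase-1 are described here against intestines of embryos that lacked MLKL and had normal caspase-8 and caspase-1. The labels chose the libraries: 3 of the 36 RNA sequencing samples of the series are labelled as intestine with *Casp8* C362A, *Mlkl* knockout and *Casp1* knockout, and the 3 *Mlkl* knockout intestines of the same set of 12 libraries are their controls. The study asks what caspase-8 and cFLIP do together in cell death and in mouse development, using caspase-8 mutants, and it sequenced 30 embryonic intestines and 6 cultures of embryonic fibroblasts. The full genotypes were *Casp8* C362A/C362A *Mlkl*-/- *Casp1*-/- (C362A *Mlkl* *Casp1*, 3 embryos) and *Mlkl*-/- (*Mlkl* controls, 3 embryos), so every embryo compared lacked MLKL. All alleles were germline changes present in every cell, on a C57BL/6N background, and no embryo was treated. The study text calls *Mlkl* controls littermates of C362A *Mlkl* embryos, and the labels do not say which libraries shared a litter. A further 3 embryos of the set were C362A *Mlkl* with normal *Casp1*. The last 3 of its 12 libraries were C362A *Cflar* *Mlkl* embryos, which also lack cFLIP and were fitted with the others but not compared. Another set gave 3 D387A *Cflar* *Mlkl* *Casp1* embryos, whose caspase-8 cannot cut itself between its subunits and which lack cFLIP, with 3 *Mlkl* controls of their own. No *Mlkl* *Casp1* embryo with normal caspase-8 was in the set, so the comparison with the *Mlkl* controls joins C362A and the *Casp1* deletion. The C362A *Mlkl* embryos carry C362A without the deletion. An effect of the deletion with normal caspase-8 was not measured. Reads counted on genes came to 28507734, 31052238 and 23968160 in *Mlkl* replicates 1 to 3 and to 28234479, 28072627 and 28085588 in C362A *Mlkl* *Casp1* replicates 1 to 3. The C362A *Mlkl* libraries held 26844099, 25509179 and 26958432 reads. Replicate numbers have no order across groups.

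Caspase-8 joins FADD and cFLIP downstream of death receptors, where it can start apoptosis and where its protease activity also holds back RIPK3 and MLKL, the kinase and the membrane-rupturing protein of necroptosis. Caspase-1 is activated on inflammasomes, matures IL-1β and IL-18 and cuts gasdermin D in pyroptosis. Interferons act through receptors at the cell surface and switch on antiviral and antigen presentation genes.

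Levels between genes are given in RPKM, library-size-scaled counts (CPM) divided by gene width in kilobases, with library sizes corrected for composition by TMM scaling. Changes are log2 fold changes from an edgeR quasi-likelihood test with their standard error (SE, in log2 units), and p was adjusted over all genes tested by the Benjamini-Hochberg method. A gene is called higher or lower where the log2 fold change lies beyond 1 in that direction with an adjusted p under 0.05. *Casp1* (ENSMUSG00000025888, chr9:5298517-5307265) had 2, 0 and 2 reads in the C362A *Mlkl* *Casp1* libraries and 33.1, 45.2 and 43.2 RPKM in the controls, so the labels and the reads match for this gene (log2 fold change -10, adjusted p = 5.76e-11). *Casp8* (ENSMUSG00000026029, chr1:58795374-58847503) carries a codon change that counts per gene cannot show. Its level was 34.1, 29.6 and 24.2 RPKM in the controls and 42.2, 41.4 and 38.7 RPKM in the C362A *Mlkl* *Casp1* embryos, each above each control, and it was not called (log2 fold change 0.47). *Mlkl* reads rose in embryos that lack the protein: 1.07, 1.25 and 1.94 RPKM in the controls and 28.0, 30.8 and 24.0 RPKM in the C362A *Mlkl* *Casp1* embryos (log2 fold change 4.29, SE 0.22, adjusted p = 3.43e-09), so *Mlkl* counts cannot check the deletion. *Cflar*, intact in both groups, had a log2 fold change of 0.07. Of the 4 targeted genes, 1 was called higher and 1 lower (median log2 fold change 0.27). Among 17 tested genes within 2 Mb of *Casp1*, 1 was called higher and 0 lower, with a median log2 fold change of -0.04, next to 6.79% higher among all genes tested. The higher one was *Casp4*, the caspase-11 gene that senses bacterial lipopolysaccharide, at 7.38, 8.90 and 12.3 RPKM in controls and 113, 119 and 101 RPKM in C362A *Mlkl* *Casp1* (log2 fold change 3.54, SE 0.17, adjusted p = 2.25e-09). In C362A *Mlkl* embryos, whose *Casp1* is intact, it stood at 67.3, 84.2 and 74.96 RPKM. Around *Casp8* 3 of 45 genes were higher and 0 lower (median 0.02), also next to 6.79%: *Spats2l* (log2 fold change 2.97), *4930558J18Rik* (1.15) and *Gm20257* (1.03, and 0.75 and not called without *Mlkl* replicate 1). Reads of *Xist* and of Y-linked genes put *Mlkl* replicate 3 and C362A *Mlkl* *Casp1* replicate 1 as male and the other 4 as female, and none of 5 sex markers was called.

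The C362A *Mlkl* *Casp1* intestines had far higher interferon-stimulated genes than the *Mlkl* controls, in all 3 embryos. *Isg15*, a ubiquitin-like antiviral protein, averaged 2949 ± 311 RPKM (mean ± SD, n = 3) against 15.3 ± 7.73 RPKM (n = 3). MHC class I genes, CXCR3-ligand chemokines and several cell-death genes rose as well, while MHC class II genes, most neutrophil markers and *Il1b* did not pass the test. Falls were fewer and included metallothioneins, several transporters and metabolic enzymes, and enteric neuron and glia markers. In total 2041 of 19408 genes tested were called (percent_called 10.5), 1318 higher (6.79) and 723 lower (3.73), and the 3 and 3 libraries did not overlap in CPM for 9907 genes tested (51.0). The unadjusted p was under 0.05 for 8915 genes, and the median log2 fold change of all genes tested was -0.00. In 2004 of the 2041 called genes the groups did not overlap. Rises were larger than falls: 103 called genes rose by more than 5 log2 units and 5 fell by more than 5, and 246 against 18 passed 3 log2 units. Protein-coding genes made up 932 of those higher and 609 of those lower. These p-values rest on a spread between embryos that was estimated from all 12 libraries of the set. The inflammatory genes the study itself shows were 14 higher of 16 (median log2 fold change 4.85), all but *Il1b* and *Il6*. That list was chosen by the study on these samples and is not independent evidence.

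**Figure D1:**
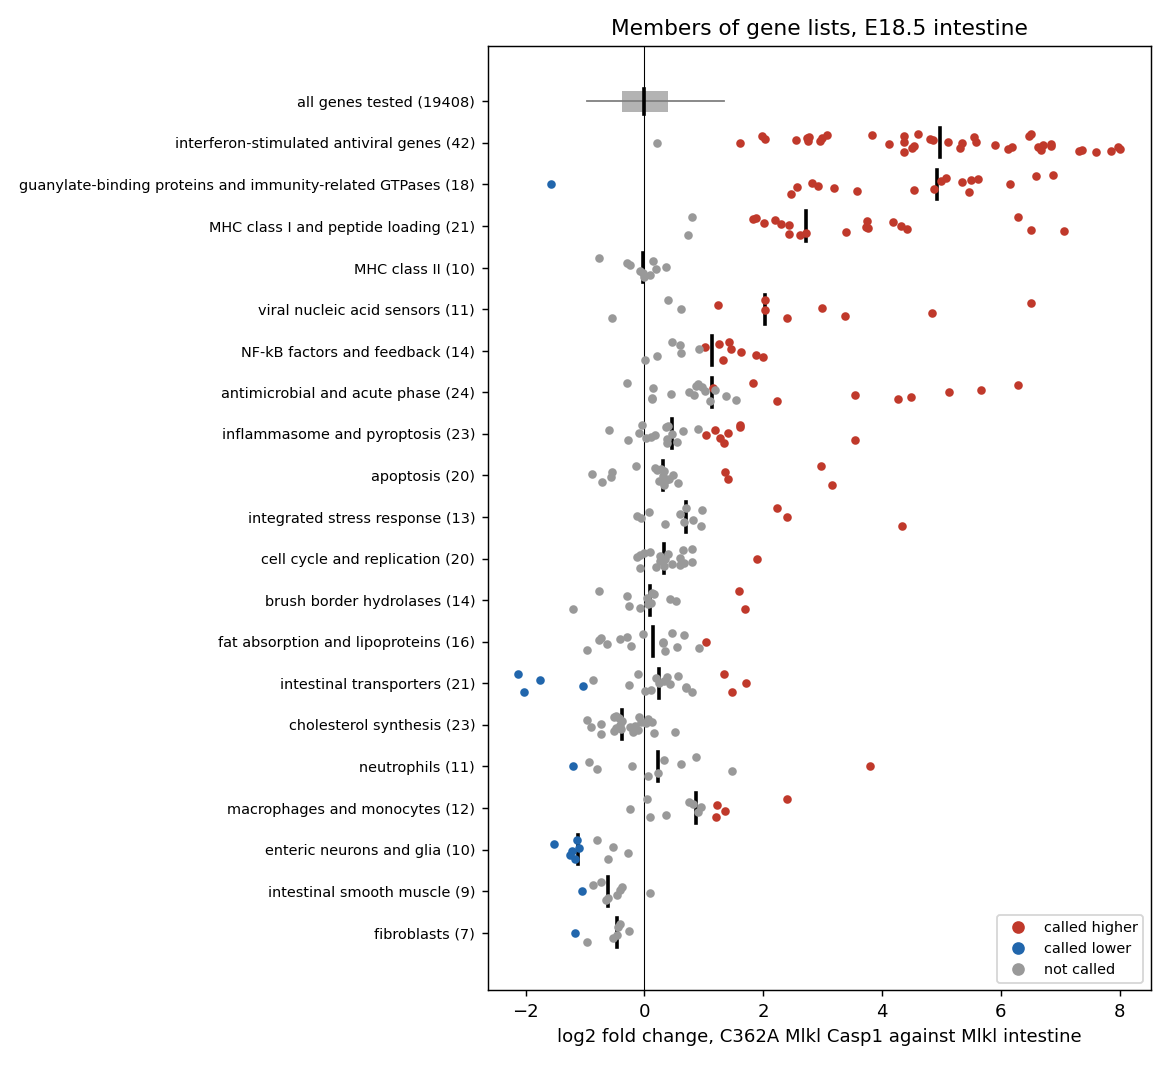
Gene lists on the vertical axis and the log2 fold change of C362A *Mlkl* *Casp1* against *Mlkl* controls (3 embryos each) on the horizontal axis, with each gene a point and black bars at medians. Interferon-stimulated, guanylate-binding protein and MHC class I genes lie to the right, MHC class II genes near 0 and enteric neuron and glia genes to the left.

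Of the interferon genes tested, 3 had reads in every C362A *Mlkl* *Casp1* embryo and no read in any control. *Ifnb1*, the interferon-β gene, had 37, 58 and 44 reads against 0 in all 3 controls, at least 50.0-fold higher than a floor of 3 reads over the control group. *Ifnl2* and *Ifnl3*, near-identical type III interferon genes for which reads that fit both copies may be missing, each had 64 reads against 0, at least 23.02-fold higher. These floors and the intervals around ratios of low counts cover counting error alone. *Ifng*, the type II interferon, was not called, with 1, 1 and 1 reads against 1, 0 and 0 in the controls. Of 4 interferons tested 3 were higher, with a median log2 fold change of 7.53 as fitted and 4.52 with the floors in place, and *Ifna4*, *Ifne* and *Ifnk* had too few reads to test. Receptors and signal factors were higher for 7 of 16 (median 0.58). *Irf7*, the factor that amplifies type I interferon transcription, was at 21.9, 33.7 and 47.9 RPKM in controls and 924, 989 and 811 RPKM in C362A *Mlkl* *Casp1*, with no overlap (log2 fold change 4.72, SE 0.26, adjusted p = 9.24e-09). *Stat2* (log2 fold change 2.15), *Irf9* (2.08), *Irf1* (1.53), *Irf8* (1.55) and the feedback inhibitor *Socs1* (2.81) rose too. *Ifnar1*, a chain of the type I receptor, was level at 23.6, 26.4 and 25.9 RPKM in controls and 25.5, 25.9 and 23.9 RPKM in C362A *Mlkl* *Casp1* (log2 fold change -0.01). Sensors of viral nucleic acid were higher for 8 of 11 (median 2.04): *Ddx58*, *Ifih1*, *Dhx58*, *Cgas*, *Tlr3*, *Tlr9*, *Zbp1* and *Adar*. *Mavs*, the adaptor of the RNA sensors, was not called (log2 fold change -0.55).

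Of 42 interferon-stimulated antiviral genes 41 were higher and none lower (median log2 fold change 4.98), and their summed level was 27506, 29278 and 25679.6 CPM against 977, 1207 and 1446 CPM in the controls. *Ifitm1* was the one not called, at 22.1, 27.0 and 24.4 RPKM against 22.2, 19.9 and 21.5 RPKM. *Isg15* stood at 2689, 3293 and 2863 RPKM in the C362A *Mlkl* *Casp1* embryos and 6.86, 16.8 and 22.1 RPKM in the controls, and the lowest of the first lay far above the highest control (log2 fold change 7.60, SE 0.38, adjusted p = 3.43e-09). *Mx1*, a GTPase that blocks influenza viruses, was at 212, 259.9 and 205 RPKM against 0.467, 0.660 and 1.53 RPKM (log2 fold change 8.01, SE 0.42, adjusted p = 4.51e-09). *Oas3*, which makes the activator of RNase L, was at 89.4, 72.0 and 61.1 RPKM against 0.226, 0.321 and 0.342 RPKM (log2 fold change 7.97, SE 0.24, adjusted p = 7.65e-11). Neither gene overlapped between groups. *Ifit2* and *Ifit3b*, of the IFIT family that binds viral RNA, rose by log2 fold changes of 7.32 and 7.36, and *Ifit3b* has a near-identical copy, *Ifit3*. The other genes among the 12 largest rises were *Ubd*, a ubiquitin-like modifier induced by TNF and interferon-γ, the apolipoprotein L gene *Apol9b* (log2 fold change 8.82), *Slfn4* (8.05), *H2-M2* (7.93), *Ifit1bl1* (7.86) and the chemokines *Cxcl11* (9.86) and *Cxcl10* (8.18). *Ubd* showed the largest: 959, 1071 and 599 RPKM in C362A *Mlkl* *Casp1* against 0.158, 0.222 and 0.234 RPKM in controls (log2 fold change 12.04, SE 0.48, adjusted p = 4.22e-10). The 12 were ranked among called genes with at least 5 CPM in the higher group and no overlap between groups, leaving out predicted models. Their lack of overlap was thus set by the choice, and 2004 of all 2041 called genes did not overlap. On the RPKM scale *Isg15* and *B2m*, the light chain of MHC class I, had means of 2949 ± 311 and 2974 ± 363 RPKM (± SD, n = 3) in the C362A *Mlkl* *Casp1* embryos.

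**Figure D2:**
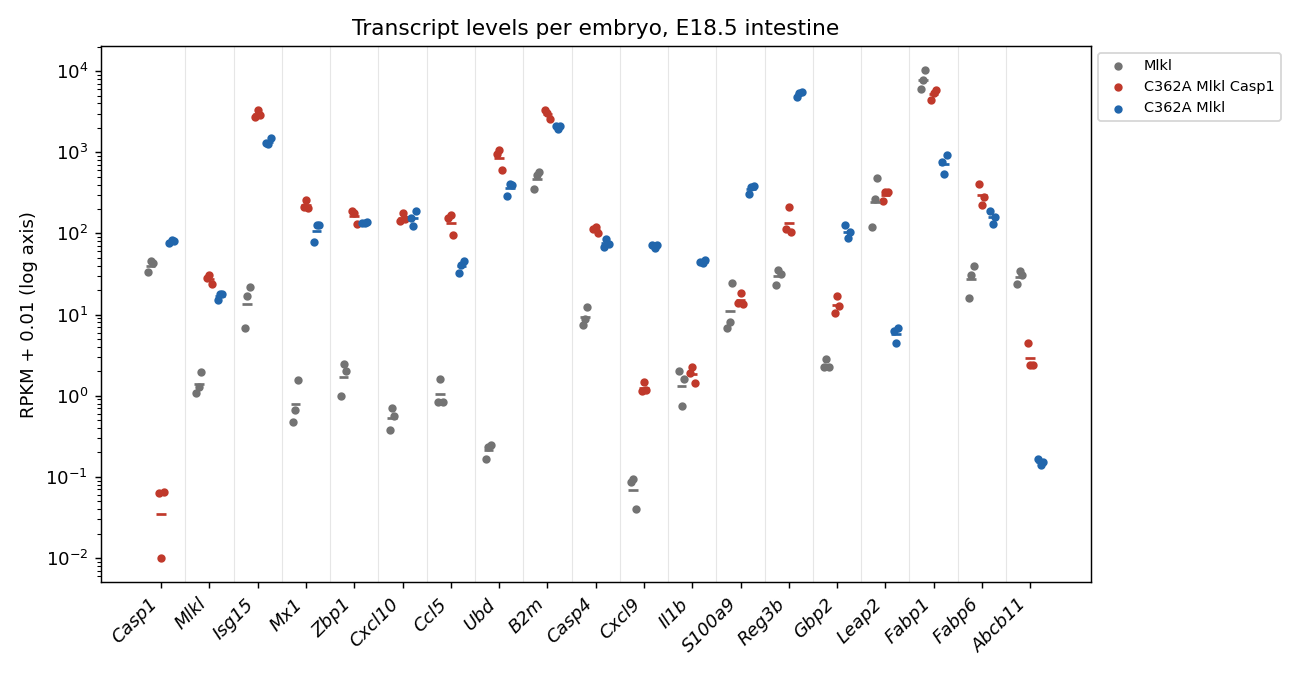
RPKM plus 0.01 on a log axis for single embryos of the *Mlkl*, C362A *Mlkl* and C362A *Mlkl* *Casp1* groups, with bars at the geometric mean and genes along the horizontal axis. Interferon-stimulated genes such as *Isg15* and *Mx1* are high in both C362A groups, whereas *Cxcl9*, *Il1b*, *S100a9* and *Reg3b* are highest in C362A *Mlkl*.

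Promoters were searched on both strands for GAAA followed by any 2 bases and GAAA again, the core of the element bound by IRF family factors, over 300 bases each. It occurred in 1131 of 32851 promoters of all genes (3.44%) and in 3.25% of promoters of genes tested. Promoters of genes called higher held it in 129 of 991 cases (13.02%), and those of genes called lower in 18 of 645 (2.79%). Among interferon-stimulated antiviral genes 18 of 37 promoters matched (48.6%), among guanylate-binding protein and immunity-related GTPase genes 10 of 12 (83.3%), in the MHC class I list 5 of 19 (26.3%) and in the MHC class II list 0 of 8. Brush border hydrolase promoters matched in 2 of 16 cases (12.5%) and cholesterol synthesis promoters in 1 of 18 (5.56%). For the 12 largest rises 10 genes had a promoter and 8 of 13 promoters matched (61.5%), while *Mx1* and *Cxcl11* had none to search. Promoters of *Ubd*, *H2-M2*, *Slfn4*, *Ifit2* and *Ifnb1* had 0 matches. A match describes sequence and not use. The *Isg15* promoter (GRCm38.p6, chr4:156200769-156201068, minus strand) held 3 overlapping matches, in capitals.
Isg15: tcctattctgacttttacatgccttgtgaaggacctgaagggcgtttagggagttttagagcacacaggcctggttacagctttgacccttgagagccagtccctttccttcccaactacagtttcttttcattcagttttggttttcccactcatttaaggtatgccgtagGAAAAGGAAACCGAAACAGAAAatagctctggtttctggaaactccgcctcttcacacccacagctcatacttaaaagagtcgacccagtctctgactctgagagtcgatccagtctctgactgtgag
The *Oas3* promoter (chr5:120777610-120777909, minus strand) held 1 match.
Oas3: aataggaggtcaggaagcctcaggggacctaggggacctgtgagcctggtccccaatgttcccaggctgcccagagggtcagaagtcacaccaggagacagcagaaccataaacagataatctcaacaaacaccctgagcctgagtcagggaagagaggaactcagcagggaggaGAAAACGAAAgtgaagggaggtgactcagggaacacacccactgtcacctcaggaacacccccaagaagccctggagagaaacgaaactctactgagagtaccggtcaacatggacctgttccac
The *Cxcl10* promoter (chr5:92348840-92349139, minus strand) held 1 match as well.
Cxcl10: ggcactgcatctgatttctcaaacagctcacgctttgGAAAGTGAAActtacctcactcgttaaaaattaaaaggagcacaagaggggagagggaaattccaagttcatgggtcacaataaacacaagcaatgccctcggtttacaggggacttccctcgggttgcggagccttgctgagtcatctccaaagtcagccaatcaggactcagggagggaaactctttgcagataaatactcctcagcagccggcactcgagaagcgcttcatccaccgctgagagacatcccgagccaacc
In the *Ifit3b* promoter (chr19:34607707-34608006, plus strand) 2 matches lay on the opposite strand and read from TTTC to TTTC here.
Ifit3b: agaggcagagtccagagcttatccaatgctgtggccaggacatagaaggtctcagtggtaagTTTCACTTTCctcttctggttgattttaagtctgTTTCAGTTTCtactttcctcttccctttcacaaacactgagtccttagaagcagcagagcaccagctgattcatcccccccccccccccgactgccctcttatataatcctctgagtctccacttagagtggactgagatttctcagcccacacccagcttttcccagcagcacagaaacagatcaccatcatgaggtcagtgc

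Guanylate-binding proteins and immunity-related GTPases, which attack vacuoles of intracellular microbes, were higher for 17 of 18 genes and lower for 1 (median log2 fold change 4.93). *Iigp1* was at 143, 167 and 114 RPKM in C362A *Mlkl* *Casp1* and 2.19, 3.51 and 2.92 RPKM in the controls, without overlap (log2 fold change 5.62, SE 0.25, adjusted p = 1.18e-09). *Tgtp1* rose by a log2 fold change of 6.60, and has a near-identical copy, *Tgtp2*. *Gbp10* had 223 reads against 3, a ratio of 80.2 (95% counting interval 27.1 to 391.9), in a family whose members share sequence. *Gbp2b* went the other way, at 0.484, 0.796 and 0.463 RPKM against 1.36, 1.83 and 1.99 RPKM (log2 fold change -1.57, SE 0.27, adjusted p = 5.51e-04). MHC class I and peptide loading genes, which display cell peptides to CD8 T cells, were higher for 19 of 21 (median 2.72), all but *H2-T3* and *Erap1*. *B2m* rose from 354, 526 and 564 RPKM to 3273, 3079 and 2570.3 RPKM (log2 fold change 2.63, SE 0.21, adjusted p = 5.21e-07). The peptide transporter *Tap1* rose from 7.36, 8.72 and 9.64 RPKM to 156, 192 and 169 RPKM (log2 fold change 4.33, SE 0.17, adjusted p = 4.22e-10). *Nlrc5*, the transactivator of class I genes, rose by a log2 fold change of 6.29, and no group overlapped for these genes. MHC class II genes, found on professional antigen-presenting cells, were called in neither direction for any of 10 (median -0.02). *Cd74*, the invariant chain, was at 59.6, 55.5 and 56.1 RPKM against 43.6, 56.6 and 54.9 RPKM and the groups overlapped (log2 fold change 0.14). *Ciita*, the class II transactivator, had a log2 fold change of -0.77 and was the 1 of 10 with an unadjusted p under 0.05, and limma-voom and DESeq2 called none of the 10 either. Without C362A *Mlkl* *Casp1* replicate 1 *Ciita* was called lower (-1.30).

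Chemokines rose in a mixed way. All 3 CXCR3 ligands, which draw T and NK cells, were higher (median log2 fold change 8.18). *Cxcl10* was at 141, 177 and 152 RPKM in C362A *Mlkl* *Casp1* and 0.363, 0.702 and 0.545 RPKM in controls (log2 fold change 8.18, SE 0.32, adjusted p = 3.80e-10), while *Cxcl9* reached only 1.13, 1.47 and 1.17 RPKM from 0.0764, 0.0834 and 0.0302 RPKM (log2 fold change 4.23, SE 0.29, adjusted p = 7.78e-08). Neither overlapped. CC chemokines were higher for 7 and lower for 1 of 16 (median 1.76): *Ccl5*, *Ccl20*, *Ccl12*, *Ccl2*, *Ccl7*, *Ccl4* and *Ccl22* rose and the eosinophil chemokine *Ccl24* fell. The call of *Ccl22* (log2 fold change 2.78) ended without *Mlkl* replicate 2 (2.46) and without C362A *Mlkl* *Casp1* replicate 1 (1.88). *Ccl5* was at 154, 168 and 95.3 RPKM against 0.830, 1.62 and 0.819 RPKM (log2 fold change 6.96, SE 0.29, adjusted p = 6.92e-10). *Ccl20*, the CCR6 ligand made by epithelium over lymphoid follicles, was at 38.4, 48.6 and 44.9 RPKM against 0.828, 1.77 and 1.503 RPKM (log2 fold change 5.003, SE 0.26, adjusted p = 4.15e-09). Both separated the groups. Neutrophil chemokines were higher for 3 of 4 (median 2.74) at low levels, with *Cxcl2* at 1.77, 1.88 and 1.17 RPKM against 0.0396, 0.0185 and 0.0703 RPKM, *Cxcl1* at a log2 fold change of 3.51, and *Cxcl5* (1.97) losing its call in 5 of the 6 fits that left out a library. Of 17 cytokines 5 were higher (median 0.39): *Tnf*, *Il1a*, *Il1rn*, *Il15* and *Il12b*, the last with 9 reads against 0. *Tnf* was at 2.08, 2.69 and 1.55 RPKM against 0.0449, 0.210 and 0.266 RPKM, all 3 above the controls (log2 fold change 3.61, SE 0.43, adjusted p = 2.44e-05). *Il1b* overlapped between groups, at 1.90, 2.27 and 1.42 RPKM against 1.98, 0.736 and 1.58 RPKM (log2 fold change 0.39, adjusted p = 0.424). *Il18*, like *Il1b* a substrate of caspase-1, was not called either (log2 fold change 0.37), and *Il10*, *Il22*, *Il12a*, *Il23r* and *Il25* had too few reads to test. NF-κB factors and feedback genes were higher for 8 of 14 (median 1.14), among them *Relb* (log2 fold change 2.000), *Nfkb2* (1.32) and the inhibitor *Nfkbia*. *Nfkbia* was at 81.3, 76.3 and 57.6 RPKM against 20.2, 20.3 and 18.2 RPKM, without overlap (log2 fold change 1.87, SE 0.14, adjusted p = 2.57e-07).

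Antimicrobial and acute phase genes were higher for 9 of 24 and lower for none (median log2 fold change 1.13). *Reg3g*, a lectin against Gram-positive bacteria that is nearly identical over parts of its length to *Reg3b*, was at 89.3, 79.7 and 50.3 RPKM in C362A *Mlkl* *Casp1* and 2.29, 3.30 and 5.88 RPKM in controls (log2 fold change 4.27, SE 0.33, adjusted p = 3.15e-07), and *Reg3b* at 114, 210.1 and 103 RPKM against 23.2, 35.9 and 31.3 RPKM (log2 fold change 2.24, SE 0.29, adjusted p = 5.56e-05). *Saa3*, a serum amyloid A, rose by a log2 fold change of 6.29. The nitric oxide synthase *Nos2* rose from 0.231, 0.192 and 0.183 RPKM to 4.41, 5.83 and 3.42 RPKM, and the DUOX2 maturation factor *Duoxa2* by a log2 fold change of 5.14. All of these genes separated the groups. *Nox1* had 160 reads against 3, a ratio of 57.5 (95% counting interval 19.3 to 282). *Pigr*, which carries immunoglobulin A across epithelium, rose from 23.1, 33.8 and 23.9 RPKM to 124, 90.8 and 72.7 RPKM (log2 fold change 1.83, SE 0.26, adjusted p = 1.27e-04). Complement and coagulation regulators were higher for 3 (*C2*, *C3*, *C4b*) and lower for 1 (*Cfi*) of 14 (median 0.80). *C3* was at 11.97, 13.9 and 9.22 RPKM against 4.27, 3.63 and 3.83 RPKM.

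Death-receptor genes and their complexes were higher for 6 of 15 and lower for none (median log2 fold change 0.59): *Fas*, *Tnfrsf1b*, *Ripk3*, *Zbp1*, *Tnfaip3* and *Birc3*. *Zbp1*, a sensor of left-handed nucleic acid that recruits RIPK3, was at 191, 177 and 131 RPKM in C362A *Mlkl* *Casp1* and 0.986, 2.43 and 2.03 RPKM in the controls (log2 fold change 6.51, SE 0.28, adjusted p = 7.34e-10). *Ripk3* was at 46.3, 45.2 and 40.6 RPKM against 19.5, 16.0 and 18.8 RPKM (log2 fold change 1.28, SE 0.11, adjusted p = 1.11e-06). Both separated the groups, while *Fadd* and *Ripk1* were not called (log2 fold changes 0.04 and 0.21). *Fas* rose by a log2 fold change of 2.27. Of 6 death ligands 3 were higher (median 1.81): *Tnf*, *Tnfsf15* (3.004) and *Tnfsf10*, which encodes TRAIL, at 34.98, 44.9 and 41.1 RPKM against 2.39, 3.89 and 3.68 RPKM. *Fasl* had too few reads to test. Inflammasome and pyroptosis genes were higher for 8 of 23 and lower for none (median 0.46), a list that leaves *Casp1* to the targeted genes. *Pycard*, the ASC adaptor, was at 173, 189 and 166 RPKM against 62.2, 70.7 and 76.0 RPKM (log2 fold change 1.34, SE 0.24, adjusted p = 7.70e-04). *Gsdmd* was at 299, 337 and 291 RPKM against 128, 156 and 170.5 RPKM (log2 fold change 1.03). Its call ended without *Mlkl* replicate 1 (0.89) and without C362A *Mlkl* *Casp1* replicate 2 (0.94). The others were *Casp4*, *Nlrp3* (1.27, at under 1 RPKM), *Gsdme* (1.40), *Gsdma*, *Gsdmc2* and *Gsdmc4*, and the calls of *Gsdma* and *Gsdmc2* ended without single libraries. Of 20 apoptosis genes 4 were higher (median 0.32), among them *Pmaip1*, *Bcl2a1b* with 17 reads against 2 (a call that single libraries ended), and *Bid*. *Bid*, which links caspase-8 to mitochondria, was at 25.9, 32.9 and 28.4 RPKM against 10.2, 11.4 and 11.2 RPKM, without overlap (log2 fold change 1.41, SE 0.15, adjusted p = 8.26e-06). In the integrated stress response list 3 of 13 were higher (median 0.71). *Ddit3*, the CHOP factor, was at 292, 307 and 221 RPKM against 39.1, 49.99 and 66.0 RPKM (log2 fold change 2.40, SE 0.18, adjusted p = 1.90e-07), and *Atf3* and *Chac1* had log2 fold changes of 4.34 and 2.23. Of 20 cell cycle and replication genes 1 was higher (median 0.34), next to 6.79% among all genes tested. It was the cyclin E gene *Ccne1* (log2 fold change 1.90), and *Mki67* was level (-0.08).

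Brush border, fat absorption and enterocyte lists had medians near those of all genes, while the ileal bile acid list rose in the median and transporters changed in both directions. Among all genes tested 6.79% were higher and 3.73% lower. Brush border hydrolases were higher for 2 of 14 (median log2 fold change 0.09). The aminopeptidase *Anpep* rose from 343, 366 and 278 RPKM to 1068, 1073 and 1043 RPKM (log2 fold change 1.69, SE 0.33, adjusted p = 0.00130), and the meprin *Mep1b* by a log2 fold change of 1.60. Enterocyte markers were higher for 2 of 11 (*Apoa1*, *Krt20*; median 0.32), summed to 61819.5, 76851 and 73314 CPM against 40395, 55747 and 62472 CPM, with *Apoa4* the most abundant per length in controls and *Apoa1* in C362A *Mlkl* *Casp1*. Fat absorption and lipoprotein genes were higher for 1 of 16 (median 0.15), *Apoa1*, whose call ended whenever a single library was left out. Intestinal transporters were higher for 3 (*Slc10a2*, *Slc51b*, *Abcb1a*) and lower for 4 of 21 (median 0.24). *Slc2a2*, the basolateral glucose transporter GLUT2, fell from 24.3, 28.5 and 27.1 RPKM to 7.27, 4.89 and 7.56 RPKM (log2 fold change -2.02, SE 0.29, adjusted p = 1.47e-04). The endocytic receptors *Cubn* and *Lrp2* fell (log2 fold changes -1.75 and -2.13), and so did *Slc2a5* (-1.03), a call that single libraries ended. In the ileal bile acid axis 4 of 7 were higher and 1 lower (median 1.48). *Fabp6*, the ileal bile acid binding protein, rose from 16.2, 30.8 and 40.1 RPKM to 409, 223 and 284 RPKM (log2 fold change 3.40, SE 0.29, adjusted p = 9.28e-07). *Slc10a2*, *Slc51b* and *Fgf15* had log2 fold changes of 1.48, 1.71 and 1.98, and *Nr0b2*, the SHP repressor, fell (log2 fold change -1.57). Cytochrome P450 and conjugation genes were higher for 3 (*Cyp3a13*, *Cyp4v3*, *Ces2c*) and lower for 2 of 21 (*Cyp2c66*, *Cyp2d26*; median 0.08), with *Cyp3a13* at 189, 189 and 157 RPKM against 50.6, 57.1 and 53.3 RPKM. Single libraries ended the calls of *Cyp4v3*, *Cyp2c66* and *Cyp2d26*.

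Of 23 cholesterol synthesis genes edgeR, limma-voom and DESeq2 called none, and the median log2 fold change was -0.37. Unadjusted p was under 0.05 for 11 of the 23, next to 8915 of 19408 over all genes tested. Up to 2 were lower when single libraries were left out. *Hmgcs1*, which makes a precursor of mevalonate, was at 51.7, 53.6 and 53.8 RPKM against 125, 81.9 and 57.0 RPKM, below all controls. The group of *Leap2*, ghrelin and its activating enzyme had none called of 3 (median 0.05), and *Leap2*, the blocker of the ghrelin receptor, was at 251, 327 and 320.0 RPKM against 119, 262 and 477 RPKM. Stem cell genes were higher for 1 of 8 (median -0.02), the Wnt target *Axin2* (log2 fold change 1.35), while *Lgr5* was not called (-0.60). Over all genes tested 6.79% were higher, the share to set beside this list and the marker lists that follow. Genes of fetal-like regenerative epithelium were higher for 4 of 10 (*Ly6a*, *Cldn4*, *Areg*, *Ereg*; median 0.46). *Ly6a*, which encodes Sca-1 and is also induced by interferon, rose from 6.81, 7.81 and 6.43 RPKM to 332, 263 and 134 RPKM (log2 fold change 5.11, SE 0.29, adjusted p = 9.24e-09), and the growth factor *Areg* by a log2 fold change of 3.47. Goblet cell markers were higher for 1 of 9 (median 0.26) and summed to 4171, 2296 and 2063 CPM against 1945, 2562 and 2389.8 CPM, with the trefoil factor *Tff3* the most abundant. That 1 was *Zg16* (367, 128 and 97.1 RPKM against 31.9, 68.2 and 66.3 RPKM), whose log2 fold change of 1.83 fell to 0.998 without C362A *Mlkl* *Casp1* replicate 1. Enteroendocrine markers were higher for 1 of 13 (median 0.22), the secretin gene *Sct* (log2 fold change 1.17), and summed to 706, 644 and 611 CPM against 459, 536 and 494 CPM. Tuft cell markers were not called for any of 3 by edgeR, limma-voom or DESeq2 (median -0.59). Of the 3, 2 had an unadjusted p under 0.05, again next to 8915 of 19408 genes. Tuft markers summed to 10.3, 15.1 and 15.6 CPM against 22.6, 20.8 and 20.01 CPM, with *Trpm5* the most abundant. *Pou2f3*, *Il25* and *Gnat3* were too low to test.

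Falls were ranked like the 12 rises, among called genes with at least 5 CPM in the higher group and no overlap. Predicted gene models were left out. The 12 largest falls so ranked were *Casp1* and 11 genes for transporters, metabolic enzymes, metallothioneins and plasma proteins. Over all genes tested 18 called falls passed 3 log2 units. *Abcb11*, the bile salt export pump, fell from 23.6, 34.2 and 30.9 RPKM in controls to 4.41, 2.40 and 2.37 RPKM in C362A *Mlkl* *Casp1*. Its log2 fold change was -3.27 (SE 0.23, adjusted p = 9.47e-08). *Gatm*, the first enzyme of creatine synthesis, fell from 81.1, 124 and 79.8 RPKM to 8.41, 13.5 and 16.2 RPKM (log2 fold change -2.90, SE 0.26, adjusted p = 1.60e-06). *Lrat*, which esterifies retinol, fell from 16.7, 24.2 and 24.6 RPKM to 2.71, 2.58 and 4.58 RPKM (log2 fold change -2.73, SE 0.26, adjusted p = 2.58e-06). The efflux transporter *Slc47a1* (log2 fold change -2.99), the tyrosine breakdown enzyme *Fah* (-2.89), *Pbld1* (-2.44) and *Cyp2c23* (-2.40) fell as well. The metal-binding metallothioneins *Mt1* and *Mt2*, whose sequences are alike, fell (log2 fold changes -2.53 and -3.85), from 327, 169 and 379 RPKM to 49.99, 36.1 and 65.5 RPKM for *Mt1*. *Alb*, serum albumin, was at 10.8, 1.35 and 34.9 RPKM in controls and 1.03, 0.0818 and 0.0402 RPKM in C362A *Mlkl* *Casp1*, with *Mlkl* replicates 1 and 3 high. The log2 fold change of *Alb* (-5.33) was -3.97 without *Mlkl* replicate 3 and -7.97 without C362A *Mlkl* *Casp1* replicate 1, and its call ended in both of these fits and without either of the other C362A *Mlkl* *Casp1* libraries. *Ahsg*, fetuin A, moved the same way (-5.04, and -3.88 without *Mlkl* replicate 3), and 5 of the 6 libraries each decided its call.

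Outside the macrophage list few immune cell markers were called higher, next to 6.79% higher among all genes tested. Macrophage and monocyte markers were higher for 4 of 12 (*Cd14*, *Fcgr1*, *Marco*, *Ly6c2*; median log2 fold change 0.86) and summed to 617, 671 and 632 CPM against 400.1, 461 and 469 CPM, with *C1qa* the most abundant per length in C362A *Mlkl* *Casp1*. *Cd14* was at 4.24, 3.76 and 3.41 RPKM against 1.47, 1.93 and 1.53 RPKM, and *Csf1r*, the receptor that macrophages need, was not called (log2 fold change 0.36). Single libraries ended the call of *Marco*. Neutrophil markers were higher for 1 (*Ltf*) and lower for 1 (*Ngp*, a call that single libraries ended) of 11 (median 0.24), and summed to 138, 149.9 and 99.9 CPM against 20.3, 23.3 and 41.2 CPM. Most of that sum was *Ltf*, lactoferrin, at 41.6, 45.3 and 28.7 RPKM against 2.42, 3.34 and 2.55 RPKM, while *S100a9* overlapped at 13.8, 18.49 and 13.5 RPKM against 6.77, 8.11 and 24.6 RPKM. Without *Mlkl* replicate 3 the number of higher neutrophil markers was 3, as *S100a9* (1.02) and *Csf3r* (1.01) passed a log2 fold change of 1. T and NK cell markers were higher for 1 of 10 (median 0.60), *Ncr1* of NK cells and group 1 innate lymphoid cells, at 0.261, 0.513 and 0.186 RPKM against 0.0478, 0.0223 and 0.0283 RPKM, and summed to 15.6, 16.4 and 15.9 CPM against 9.82, 11.2 and 11.03 CPM with *Gzma* the most abundant. *Gzmb*, at a log2 fold change of 0.9996, lay just under the threshold and was called in 4 of the 6 fits that left out a library, and the number of higher markers ran from 1 to 3 over all settings. *Cd3d*, *Cd3e* and *Eomes* were too low to test. Type 3 innate lymphoid markers were not called for any of 4 (median -0.61) and summed to 60.8, 52.4 and 54.4 CPM against 57.0, 86.7 and 88.2 CPM. B cell markers were not called for either of 2 (median -0.08), at 2.33, 3.58 and 3.15 CPM against 1.69, 2.27 and 2.57 CPM in sum, and *Cd79a*, *Ms4a1* and *Pax5* were too low to test. Mast cell markers were not called for any of 6 (median -0.02), with 1 lower without *Mlkl* replicate 3, and summed to 25.1, 35.8 and 37.1 CPM against 42.6, 39.7 and 29.9 CPM. Unadjusted p was under 0.05 for 3 of the 4 type 3 innate lymphoid markers and 1 of the 2 B cell markers. Of the 6 mast cell markers 0 had such a p, and over all genes tested 8915 of 19408 did. Limma-voom and DESeq2 called none of these markers. In whole tissue, fewer cells and less RNA per cell cannot be told apart.

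Nerve markers were lower in part. In the main fit each wall list held at most 1 lower gene, next to 3.73% lower among all genes tested. Enteric neuron and glia markers were lower for 6 of 10 (median log2 fold change -1.12) and summed to 104, 124 and 144 CPM against 248, 207 and 169 CPM, without overlap, with *Uchl1* the most abundant. *S100b* of glia was at 0.542, 0.925 and 1.05 RPKM against 2.16, 2.83 and 2.20 RPKM (log2 fold change -1.52, SE 0.28, adjusted p = 8.66e-04). *Elavl4*, *Tubb3*, *Sox10* and *Nos1* were among the lower ones too, and without *Mlkl* replicate 1 none of these 4 passed a log2 fold change of -1 (*Elavl4* -0.94, *Tubb3* -0.91, *Sox10* -0.88, *Nos1* -0.81). Intestinal smooth muscle markers were lower for 1 of 9 (median -0.60), *Myh11*, at a log2 fold change of -1.05 that was -0.81 without *Mlkl* replicate 1, and 3 were lower without C362A *Mlkl* *Casp1* replicate 3. Their summed level overlapped between groups, 2234, 3187 and 4076 CPM against 5322, 4629.8 and 3312 CPM, with *Actg2* the most abundant. Fibroblast markers were lower for 1 of 7 (median -0.47), *Col1a1*, whose log2 fold change of -1.16 was -0.74 without *Mlkl* replicate 1, with 2 markers lower without each of 4 other libraries, and summed to 1215, 1621 and 1958 CPM against 3721, 2358 and 1916 CPM with *Col3a1* the most abundant. Vascular endothelium markers were not called for any of 6, 1 having an unadjusted p under 0.05 (median -0.40), at 226, 309.5 and 321 CPM against 460.3, 375 and 299 CPM. Lymphatic endothelium markers were not called for any of 4 (median -0.28), at 105, 90.0 and 82.5 CPM against 95.9, 80.3 and 76.2 CPM. Unadjusted p was under 0.05 for 2 of these 4, next to 8915 of all 19408 genes tested. Mesothelium markers were lower for 1 of 4 (median -0.21), *Upk3b*, whose log2 fold change of -1.08 was -0.87 without C362A *Mlkl* *Casp1* replicate 1, and summed to 60.4, 91.8 and 117 CPM against 130.1, 135 and 139 CPM.

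Markers of blood and neighbouring organs varied between single embryos. Erythroid markers were lower for 2 of 7 (*Alas2*, *Slc4a1*; median log2 fold change -0.84), with *Hbb-bs* the most abundant, at 646, 509.9 and 1704 RPKM in *Mlkl* replicates 1 to 3, so replicate 3 was high. *Alas2* went from -1.03 to -0.64 without that library, the call of *Slc4a1* ended in 4 of the 6 fits that left out a library, and the number of lower markers ran from 0 to 4 over all settings. Their sums were 756, 429.8 and 512 CPM in C362A *Mlkl* *Casp1* against 657, 507 and 1562 CPM. Hepatocyte markers were lower for 3 of 7 (*Alb*, *Ahsg*, *Serpina1a*, and 1 without each of 4 single libraries; median -1.04), and their sums overlapped at 1029.9, 1504 and 1977 CPM against 1345, 1658 and 1477 CPM, mostly *Afp*. Pancreatic acinar markers were not called for any of 7, 1 having an unadjusted p under 0.05 (median -0.11), at 17.7, 15.8 and 14.3 CPM against 15.2, 30.8 and 43.5 CPM. *Cela1* was called lower without *Mlkl* replicate 1 (-1.28), and *Ctrb1* with the 2 groups fitted alone or with no filter on low counts. Pancreatic islet markers were lower for 1 of 4 (*Pcsk2*, a call that single libraries ended; median 0.04), at 2.89, 3.41 and 1.88 CPM against 2.91, 3.89 and 3.79 CPM. Stomach epithelium markers were not called for any of 7 in the main edgeR fit. Unadjusted p was under 0.05 for 4 of the 7, next to 8915 of 19408 over all genes tested. Limma-voom called 1 lower (*Pga5*), and edgeR with no filter on low counts called 3 higher. EdgeR also called *Gkn3* and *Tff2* with the 2 groups fitted alone, and *Gkn3* without C362A *Mlkl* *Casp1* replicate 1. *Pga5* was called with a sex term, without *Mlkl* replicate 1 and without C362A *Mlkl* *Casp1* replicate 2. The median log2 fold change was 3.93 as fitted and 0.85 with a floor for *Gkn2*, which had no control read. Sums of the stomach markers were 3.62, 6.61 and 41.8 CPM against 7.47, 9.02 and 9.98 CPM, so C362A *Mlkl* *Casp1* replicate 3 alone was high, and *Muc5ac* was too low to test. Age, strain and tissue were shared by both groups, while the labels give no litter per library and each group held 3 embryos.

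Next to C362A *Mlkl* embryos, in which caspase-1 is intact, the C362A *Mlkl* *Casp1* intestines had some interferon-stimulated antiviral genes at higher levels and few at lower levels. Some guanylate-binding protein genes and most MHC class II, neutrophil and antimicrobial genes were lower, while many absorptive epithelium genes were higher. *Reg3b* was 142 ± 58.9 RPKM (mean ± SD, n = 3) against 5240.2 ± 384 RPKM (n = 3). Here the groups differ at *Casp1* alone, by label. Of 19408 genes 2196 were called (percent_called 11.3), 1086 higher (5.60) and 1110 lower (5.72) in C362A *Mlkl* *Casp1*, and the median log2 fold change of all genes tested was -0.02. Interferon-stimulated antiviral genes were higher for 13 and lower for 1 of 42 (median 0.72), with *Isg15* at 2689, 3293 and 2863 RPKM against 1312, 1275 and 1489 RPKM (log2 fold change 1.12, SE 0.29, adjusted p = 0.00878) and the 1 lower being *Ifitm1* (-2.07). The 13 higher became 7 without C362A *Mlkl* replicate 1, where the log2 fold change of *Mx1* was 0.84, also 7 without C362A *Mlkl* *Casp1* replicate 2, and 10 to 14 without each other library. *Ifnb1* had 37, 58 and 44 reads against 4, 8 and 5 (log2 fold change 3.19, SE 0.39, adjusted p = 1.82e-04), and of 4 interferons 3 were higher and *Ifng* lower. *Ccl5* and *Ccl20* were higher too (log2 fold changes 1.80 and 2.24), and *Ddit3* likewise (1.52). Guanylate-binding proteins were lower for 5 of 18 and higher for none (median -0.48), MHC class II genes lower for 7 of 10 (median -1.24) and MHC class I genes higher for 1 of 21. Sensors of viral nucleic acid were lower for 3 of 11 and higher for 1 (0 without some single libraries). Among the largest falls, ranked as for the *Mlkl* comparison, was *Ido1*, the tryptophan-degrading enzyme induced by interferon-γ. It had 0, 0 and 1 reads against 1790, 1613 and 1194. C362A *Mlkl* thus stood higher by a ratio of 4046 (95% counting interval 726 to 159830). *Casp1* itself (-10.98), *Tarm1* (-6.07), *Gsdmc2* (-5.92), *Cxcl9* (-5.79) and the goblet cell protein gene *Retnlb* (-5.76) followed.

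Neutrophil markers were lower than in C362A *Mlkl* for 8 of 11 (median log2 fold change -3.16), with *S100a9* at 13.8, 18.49 and 13.5 RPKM against 306, 375 and 387.2 RPKM and no overlap (log2 fold change -4.55, SE 0.39, adjusted p = 1.42e-06). Neutrophil chemokines were lower for all 4 (median -3.53), cytokines for 9 of 17, CC chemokines for 8 of 16 with 3 higher, and antimicrobial genes for 15 of 24 (median -2.03). *Reg3b* was at 114, 210.1 and 103 RPKM against 4805, 5384 and 5532 RPKM (log2 fold change -5.20, SE 0.33, adjusted p = 1.20e-07), and *Duox2*, an epithelial peroxide source, at 1.76, 1.48 and 0.704 RPKM against 33.2, 33.5 and 40.7 RPKM (log2 fold change -4.77, SE 0.29, adjusted p = 9.99e-08). Inflammasome and pyroptosis genes were lower for 8 and higher for 2 of 23, complement genes lower for 7 and higher for 1 of 14, and macrophage markers lower for 5 of 12. T and NK markers were lower for 5 of 10 and fetal-like genes for 5 of 10. For these last 2 lists the number ran from 3 to 6 when single libraries were left out. In the other direction, fat absorption genes were higher for 13 of 16 (median 1.41), transporters for 13 of 21, P450 and conjugation genes for 12 of 21, brush border hydrolases for 6 of 14, enterocyte markers for 6 of 11 and bile acid genes for 4 of 7, with none lower. *Fabp1*, the fatty acid binding protein of enterocytes, was at 4430.5, 5314 and 5839.5 RPKM in C362A *Mlkl* *Casp1*, 764, 542 and 918 RPKM in C362A *Mlkl* and 6042, 7696 and 10229 RPKM in the *Mlkl* controls (log2 fold change 2.81, SE 0.28, adjusted p = 4.40e-06). *Leap2* was at 251, 327 and 320.0 RPKM in C362A *Mlkl* *Casp1* and 6.20, 4.43 and 6.81 RPKM in C362A *Mlkl* (log2 fold change 5.69, SE 0.42, adjusted p = 3.66e-07). The other largest rises by the same ranking were *Nr2e3* (log2 fold change 5.25), the glucose-releasing phosphatase *G6pc* (4.74) and *Abcb11* (4.42). *Sdr16c5* (4.34) and the carnitine synthesis enzyme *Bbox1* (4.24) followed. For *Abcb11* and *Slc2a2* the C362A *Mlkl* *Casp1* embryos lay between the other groups, with 0.155, 0.132 and 0.140 RPKM and 0.695, 0.179 and 0.688 RPKM in C362A *Mlkl*.

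Against their own *Mlkl* controls, D387A *Cflar* *Mlkl* *Casp1* intestines also had higher interferon-stimulated genes, and the rise was smaller than in C362A *Mlkl* *Casp1* and uneven between embryos. In one scaling of 30 intestines *Isg15* was at 153, 188 and 1261 RPKM in D387A *Cflar* *Mlkl* *Casp1* replicates 1 to 3 and 23.7, 49.2 and 28.9 RPKM in their controls, with replicate 3 far above the others. On the same scale C362A *Mlkl* *Casp1* was at 2604, 3165 and 2742 RPKM (difference of log2 fold changes 3.58, SE 0.76, adjusted p = 0.00169). The 2 effects differed for 1468 of 19643 genes (percent_called 7.47), 904 higher (4.60) and 564 lower (2.87) in the C362A effect, with a median difference of -0.04 over all genes tested. Without D387A *Cflar* *Mlkl* *Casp1* replicate 3 the number was 2065, and without *Mlkl* replicate 1 it was 951. Both genotypes lack MLKL and caspase-1 and differ at *Casp8* and *Cflar*, so those cannot be told apart. Genotype and set are also joined, and each effect is taken against controls of its own set. In separate calls, 1312 genes were higher in C362A *Mlkl* *Casp1* and 405 in D387A *Cflar* *Mlkl* *Casp1* of 19289 tested in both fits, with 274 in both (20.9% of the first list and 67.7% of the other) and 14 of the first lower in the other. For falls the numbers were 720 and 370, with 106 in both (14.7% and 28.6%) and 5 opposite.

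**Figure D3:**
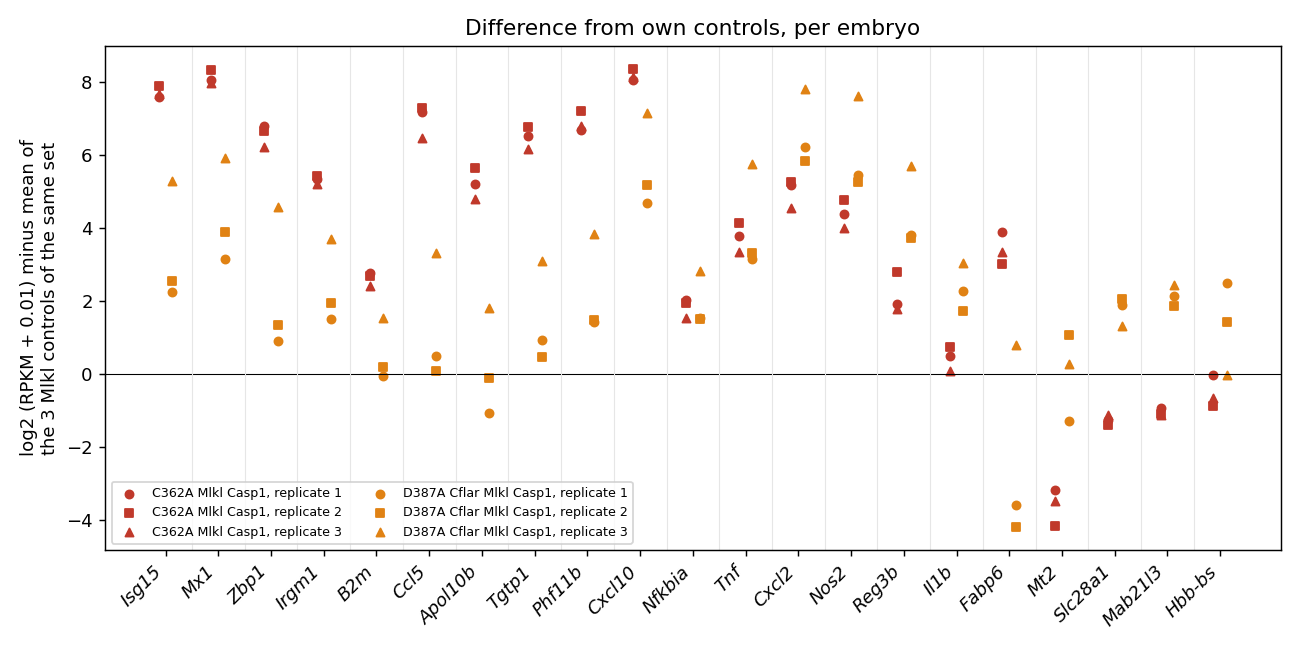
Log2 of RPKM plus 0.01 in each C362A *Mlkl* *Casp1* and D387A *Cflar* *Mlkl* *Casp1* embryo minus the mean of the 3 *Mlkl* controls of its set, with genes along the horizontal axis. *Isg15*, *Mx1* and *Ccl5* are higher in all 3 C362A *Mlkl* *Casp1* embryos, *Reg3b* and *Il1b* in the D387A embryos, and D387A replicate 3 lies apart from replicates 1 and 2.

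Interferon-stimulated antiviral genes had the larger effect in C362A *Mlkl* *Casp1* for 40 of 42 (median difference of log2 fold changes 2.64). *Ccl5* was at 2.17, 1.62 and 15.5 RPKM in D387A *Cflar* *Mlkl* *Casp1*, 1.54, 1.20 and 2.003 RPKM in their controls and 149, 161 and 91.2 RPKM in C362A *Mlkl* *Casp1* (difference of log2 fold changes 4.93, SE 0.93, adjusted p = 6.67e-04). The C362A effect also lay above the D387A effect for *Tgtp1* (difference of log2 fold changes 4.57), *Tgtp2* (4.42), *Apol10b* (4.56), *Phf11b* (4.18), *B2m* (1.87), *Pycard* (1.30), *Fabp6* (4.06) and *Leap2* (2.30). Of the ranked genes *Tff1* had the largest difference (11.16). It was 1.60 without replicate 3 of the D387A set's controls, where *Tff1* stood at 0.107, 0 and 148 RPKM in replicates 1 to 3. *Cxcl10* was at 25.9, 36.2 and 142 RPKM in D387A *Cflar* *Mlkl* *Casp1* and its difference was not called (2.11, adjusted p = 0.0512). No difference was called for *Nfkbia* or *Tnf*: *Nfkbia* differed by -0.23 (adjusted p = 0.602) and *Tnf* by -1.05 (adjusted p = 0.541). *Reg3b* was at 497, 476 and 1858 RPKM in D387A *Cflar* *Mlkl* *Casp1* against 110.1, 202 and 99.0 RPKM in C362A *Mlkl* *Casp1*, so its effect was smaller in the latter (difference of log2 fold changes -2.48, SE 0.52, adjusted p = 0.00140). *Marco*, a scavenger receptor of macrophages, was at 6.21, 5.64 and 4.75 RPKM against 0.162, 0.249 and 0.264 RPKM (difference of log2 fold changes -5.02, SE 0.79, adjusted p = 1.55e-04). Below the D387A effect lay also *Mt2* (difference of log2 fold changes -4.18), *Mab21l3* (-3.26), *Alas2* (-3.12), *Slc28a1* (-3.09) and *Ttn* (-2.92). Of 7 erythroid markers 6 lay below it (median difference -2.45). In D387A *Cflar* *Mlkl* *Casp1* 5 of them were higher than in their own controls (median log2 fold change 1.55). In the C362A set *Mlkl* replicate 3 was high, its erythroid sum being 1562 CPM against 657 and 507 CPM in replicates 1 and 2. Median differences were 6.52 for stomach markers, with 2 of 7 above. They were 2.02 for pancreatic acinar and 2.36 for islet markers, with 0 called in either list. The cause of these differences was not tested. *Il1b* differed by -1.96, a call that ended without replicate 3 of the D387A set's controls (-1.63).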

How the data were processed

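RNA of whole E18.5 mouse intestines was sequenced by the authors, who mapped it to GRCm38 (mm10 in the labels) with GSNAP and deposited 1 value per gene and library. The deposited unit is count, whole numbers of reads for 52636 genes, and a width column gives gene length in bases. The sources used do not name the counting program, the annotation release or the strand setting. Of these genes 52489 were matched to GENCODE annotation for positions. The reported library kit and instrument differ between the study text and the labels.

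Counts of the 12 C362A-set intestines were fitted together by genotype in edgeR 4.0.16 (R 4.3.3) with TMM scaling, filterByExpr (minimum count 10, minimum total 15), quasi-likelihood tests, Benjamini-Hochberg adjustment over all 19408 genes tested and a prior count of 0.125. Genes were called at a log2 fold change beyond 1 and an adjusted p under 0.05. C362A *Mlkl* *Casp1* was tested against *Mlkl* and against C362A *Mlkl*. The effect was tested against that of D387A *Cflar* *Mlkl* *Casp1* over its own controls in a fit of 30 intestines (19643 genes). CPM and RPKM used TMM-scaled library sizes. Where a group had 0 reads, a floor of 3 reads over the group replaced it, and ratios with 1 to 3 reads carry 95% counting intervals. Functions were tested on simulated data.

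Named genes are the members of 53 fixed gene lists, the 12 largest called rises and 12 largest called falls with a mean of at least 5 CPM in the higher group, the 6 largest each way in the other comparisons, and called genes within 2 Mb of *Casp1* and *Casp8*. Ranked genes also had to show no overlap between the libraries compared, and predicted gene models were left out. Libraries and lists were chosen with earlier results of these data known. Tests were repeated in voom of limma 3.58.1 and in DESeq2 1.42.0, with DESeq2-style size factors, other filters and prior counts, a sex term, a replicate block, pooled controls and leaving out each library. Promoters of 300 bases came from RefSeq on GRCm38.p6.

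Each group holds 3 embryos of mixed sex, and the labels give no litter per library. No embryo lacked *Mlkl* and *Casp1* with normal caspase-8, so both changes are joined in the main comparison. The D387A embryos come from another set of libraries. Whole tissue mixes cell types, and 19713382 to 31052238 reads per library in the groups compared leave genes with a few reads untested. Near-identical genes (*Ifnl2* and *Ifnl3*, *Tgtp1* and *Tgtp2*, *Ifit3* and *Ifit3b*, *Reg3b* and *Reg3g*, *H2-Q6* and *H2-Q7*, *Gsdmc2* to *Gsdmc4*) may be counted too low, because the authors used only reads that mapped to 1 place. Fibroblast libraries and the other intestinal genotypes were left out of the comparisons.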

Additional observations from a re-analysis of the deposited data

Results flagged for a closer look

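Effects over their own *Mlkl* controls differed between C362A *Mlkl* *Casp1* and D387A *Cflar* *Mlkl* *Casp1* intestines for 1468 genes, tested as the difference of log2 fold changes in edgeR (log2 difference beyond 1, adjusted p under 0.05). The 2 genotypes differ at *Casp8* and *Cflar* and come from separate sets of libraries.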

How the results depend on the processing

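Against the *Mlkl* controls the number of called genes was 2025 with limma-voom, 2029 with DESeq2, 2052 with DESeq2-style size factors, 2197 with no filter, 1980 with the 2 groups fitted alone and 2082 with a sex term, next to 2041 as reported. It ran from 1688 to 2459 when each library was left out, from 1057 to 1520 for higher genes and from 623 to 1014 for lower genes. With a filter at a mean of 50 reads per library the number of lower genes was 447 and that of higher genes 962, and this filter tests fewer genes. With the *Mlkl* controls of both sets pooled to 6 the number of lower genes was 1178 and that of higher genes 1448. That setting also brings in controls of another set and the fit of 30 intestines, and the cause was not tested. A replicate block gave 1967, 2145 against C362A *Mlkl* and 1454 for the difference from the D387A effect, and residuals of libraries with the same number did not correlate between groups (r from -0.25 to 0.05), so the numbers do not pair embryos.

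Against C362A *Mlkl* the count was 2208 with limma-voom, 2178 with DESeq2, 2336 with no filter, 1483 with the filter at 50 reads and 2000 to 2174 when each library was left out. The count of genes whose effect differed from the D387A effect was 1508 with limma-voom, 1160 with the filter at 50 reads and 1463 with DESeq2-style size factors. It ran from 951 (without *Mlkl* replicate 1) to 2065 (without D387A *Cflar* *Mlkl* *Casp1* replicate 3) when each library was left out, and the cause was not tested.

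Of 598 list and named genes 227 were called against *Mlkl*, and no gene called in both changed direction in the settings compared gene by gene, which did not include the pooled controls and gave values for 534 to 598 genes. Calls lost were 7 with limma-voom (*Ahsg*, *Alas2*, *Alb*, *Cxcl5*, *Gsdmc2*, *Ngp*, *Slc4a1*), 1 with DESeq2 (*Marco*), 0 with DESeq2-style size factors, 3 with a prior count of 2 and 10 to 23 when each library was left out. The number of lower enteric neuron and glia markers ranged from 2 to 7, of higher inflammasome genes from 5 to 8, of lower fibroblast markers from 0 to 2, of lower hepatocyte markers from 1 to 4 and of higher enteroendocrine markers from 1 to 2. With the filter at 50 reads no interferon gene was called higher, their reads being under it. Depth limits interferon genes, *Il12b* and *Il6*, which had few reads in any library.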

Other observations

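The C362A *Mlkl* intestines, which keep caspase-1, had more *Mlkl* reads than the *Mlkl* controls as well, at 14.99, 18.0 and 17.8 RPKM. *Ltf* stood apart from the other neutrophil markers, at 41.6, 45.3 and 28.7 RPKM in C362A *Mlkl* *Casp1* and 23.9, 24.5 and 27.3 RPKM in C362A *Mlkl*. Stomach marker *Tff1* was high in replicate 3 of both C362A *Mlkl* *Casp1* (0.168, 0.261 and 2.56 RPKM) and C362A *Mlkl* (0.227, 0.149 and 10.4 RPKM).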
